A study of Mus musculus with 40 samples.

Results

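RNA bound to the ribosomes of layer 5 pyramidal neurons was compared with the total RNA of the same tissue in RBP4-TRAP mice. The libraries were chosen by strain, fraction and replicate number, and were the 5 TRAP libraries made from homogenate and the 5 whole-cell homogenate (WCH) libraries of this line, or 10 of the 40 libraries of the series. All of them came from mice that carried both a Cre transgene, Tg(RBP4-cre)KL100Gsat/Mmcd, and a Cre-dependent Rosa26 reporter, which makes EGFP fused to ribosomal protein Rpl10a from the CAG promoter, so that the WCH libraries held the tagged ribosomes too. The mice were 21 days old, and each replicate was a pool of a few animals of both sexes. Cortex is the labelled tissue, but the protocol speaks of dissected forebrains, so that cells from outside the cortex may be in both fractions. Libraries from mice without Cre, or captures without the tag, were not analysed here, and RNA that binds the beads nonspecifically was not measured. The other line of the series, VGAT-TRAP, carries the same reporter with Cre in Slc32a1, the gene of the vesicular GABA transporter, and was used only to test where the change from WCH to TRAP differed between lines.

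In translating ribosome affinity purification (TRAP), antibodies to the tag on the large ribosomal subunit pull down ribosomes together with the mRNAs they are translating, from the tagged cells only. Transcripts of the tagged cells are thus expected at a higher share in TRAP, while transcripts of untagged cells, and RNAs that are not on ribosomes, are expected at a lower share. Layer 5 holds the main output neurons of the cortex. Its pyramidal tract neurons send axons to the brainstem and spinal cord, and its intratelencephalic neurons project to cortex and striatum. A Cre-dependent reporter also stays on in cells that expressed Cre only earlier in life.

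The 10 libraries held between 16325474 and 22037703 counts. Genes on the mitochondrial chromosome, which were left out, took from 0.0584 to 0.511% of the counts in TRAP and from 2.01 to 10.004% in WCH. Between 18961 and 20042 of the other genes had at least 1 count in TRAP replicates 1 to 4, against 21951 in TRAP replicate 5 and 21687 to 22516 in WCH. TRAP replicate 5 stood apart from the rest of its group. Its Spearman correlation with the other TRAP libraries was from 0.953 to 0.963, against 0.983 to 0.987 among those 4, and on the first principal component, which held 65.6% of the variance, it was at -12.4, between the other TRAP libraries (67.5 to 96.9) and the WCH libraries (-73.2 to -45.6). Results were therefore also computed without pool 5. Below, values are counts per 1000000 (cpm) of genes off the mitochondrial chromosome after TMM scaling (trimmed mean of M values, which sets a common level from genes with moderate changes), given for replicates 1 to 5 in order. A change is the log2 fold change of TRAP against WCH within pools, and genes whose adjusted p did not exceed 0.05 were called higher or lower.

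The gene that drives the Cre line, Rbp4, which codes for the plasma retinol-binding protein, was at 22.3, 30.8, 29.2, 21.95 and 15.5 cpm in TRAP and 14.6, 9.55, 12.1, 12.6 and 8.97 cpm in WCH. All 5 TRAP libraries were above all 5 WCH libraries, with a change of 1.03 ± 0.17 (SE), adjusted p = 0.00099. Fezf2, the transcription factor that specifies subcortical projection neurons of layer 5 (chr14:12341892-12345865, minus strand), was at 132, 165, 135, 183 and 81.8 cpm in TRAP and 47.1, 36.1, 27.6, 55.8 and 29.4 cpm in WCH, a change of 1.83 ± 0.15 (SE), adjusted p = 0.00011. Etv1, an ETS family factor of layer 5 (chr12:38779380-38868215, plus strand), was at 147, 175, 158, 158 and 99.98 cpm in TRAP and 73.9, 82.4, 68.8, 78.7 and 68.9 cpm in WCH, a change of 0.97 ± 0.12 (SE), adjusted p = 0.00028. Slc17a7, the vesicular glutamate transporter VGLUT1 (chr7:45163921-45176138, plus strand), was at 647, 569.7, 707, 699 and 445 cpm in TRAP and 372, 247, 329, 393 and 288 cpm in WCH, a change of 0.91 ± 0.13 (SE), adjusted p = 0.00040. For these 3 markers of layer 5 pyramidal neurons the lowest TRAP library was replicate 5, which was still above every WCH library. Positions are those of whole genes in the files, whose build is not named and matches GRCm38, and reads in exons were counted. Rpl10a itself, whose tagged copy was captured, was at 2.46 to 4.44 cpm in TRAP and 2.77 to 4.38 cpm in WCH and was not called (change -0.22 ± 0.23 (SE), adjusted p = 0.42). Only uniquely aligned reads were counted, and Rpl10a and other ribosomal protein genes have many pseudogene copies, so that their levels are uncertain.

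**Figure D1:**
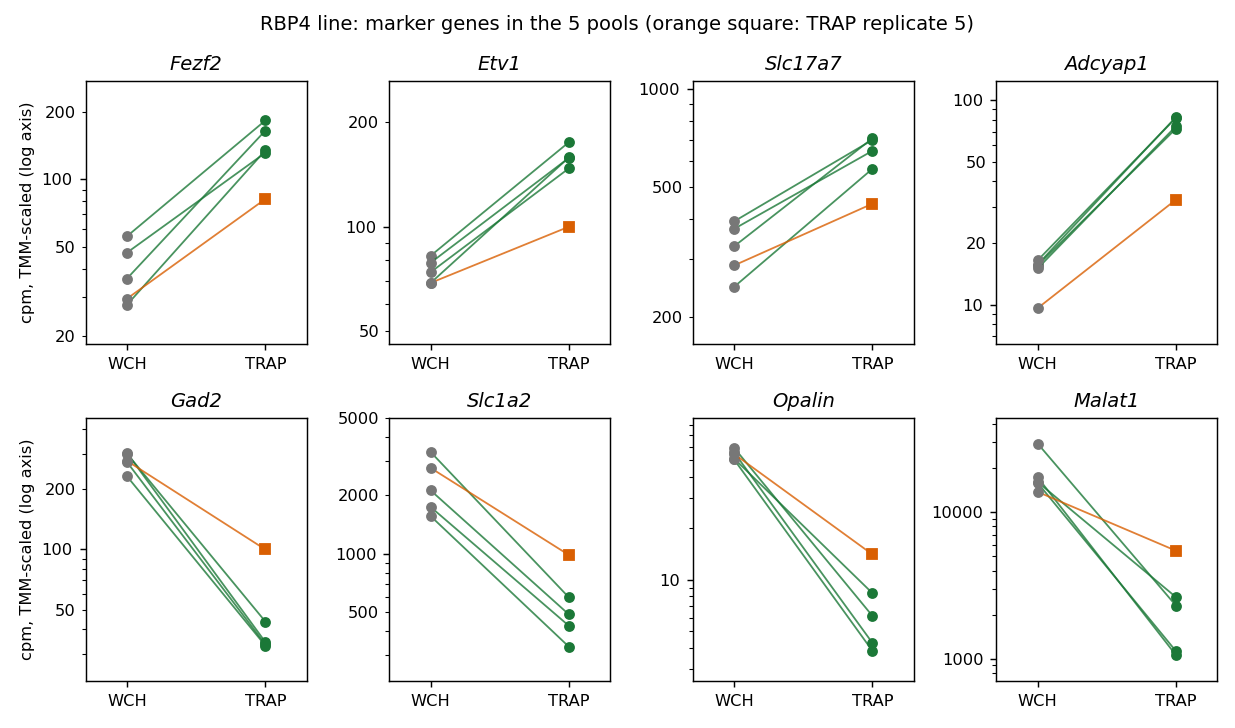
Level (cpm after TMM scaling, log axis) of 8 marker genes in WCH (grey) and TRAP (green, or orange square for replicate 5), with a line for each of the 5 pools. Fezf2, Etv1, Slc17a7 and Adcyap1 rose from WCH to TRAP in all 5 pools, and Gad2 (GABAergic neurons), Slc1a2 (astrocytes), Opalin (oligodendrocytes) and Malat1 (nuclear RNA) fell in all 5, with TRAP replicate 5 nearest to WCH in each of the latter.

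Of 16348 genes tested, 4498 (27.5%) were higher and 4850 (29.7%) were lower in TRAP than in WCH. Every TRAP library was above every WCH library for 2292 genes (14.0%), and below for 2607 (15.9%). The split between higher and lower depends on the scaling: with library sizes alone, 2599 genes were higher and 6746 lower, and the median change of all genes moved from -0.035 to -0.328. Members of gene groups are therefore described below relative to the background shares of 27.5 and 29.7%, and directions that depend on the scaling are named. In bulk libraries, fewer cells of a type and less RNA per cell cannot be told apart.

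Named in each direction are the 12 genes with the smallest p that changed at least 2-fold, did not overlap between groups and averaged 5 cpm or more on the higher side. Of the 692 such genes that were higher, the smallest p was that of Adcyap1, which codes for the neuropeptide PACAP and is made by pyramidal tract neurons. It was at 82.5, 72.4, 74.4, 81.8 and 32.6 cpm in TRAP and 15.7, 15.5, 15.0, 16.4 and 9.59 cpm in WCH, a change of 2.21 ± 0.13 (SE), adjusted p = 0.00010. The muscle protein genes Tnnc1 (slow skeletal and cardiac troponin C) and Myl4 (a myosin light chain) were at 143 to 261 against 24.7 to 39.0 cpm and at 100.3 to 253 against 28.3 to 44.4 cpm, changes of 2.53 (adjusted p = 0.00011) and 2.18 (adjusted p = 0.00011). Genes of secreted proteins were C1ql2 (2.83), a complement-like organiser of synapses, Wfdc18 (2.84), Dkkl1 (2.68) and Adamtsl2 (1.46). The remaining genes of the 12 with the smallest p were Amdhd1 (2.66), an enzyme of histidine breakdown, the opsin Opn3 (2.02), the iodide transporter Slc5a5 (1.88), the scaffold Lin7b (1.66) and the splicing-associated Arl6ip4 (1.42). Each of these 12 genes kept a change within 0.16 of its value when pool 5 was left out.

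Of the 941 such genes that were lower, the 12 with the smallest p included markers of untagged cell types. Fam107a, Fabp7 and the GABA transporter Slc6a11, which are astrocyte genes, changed by -2.95, -2.14 and -2.25. The semaphorins Sema5a (-2.20) and Sema6a (-1.92), the chloride importer Slc12a2 (-2.34), the fatty acid elongase Elovl7 (-1.93), Tmem88b (-2.99) and the haemoglobin gene Hbb-bt (-3.74) fell as well. Penk, the precursor of enkephalins in striatal neurons and interneurons, was at 78.6, 46.2, 59.4, 77.6 and 119 cpm in TRAP and 229, 167, 164, 230.2 and 334 cpm in WCH, a change of -1.58 ± 0.11 (SE), adjusted p = 0.00010. Foxp2, a transcription factor of layer 6 and striatum, was at 8.04 to 14.2 cpm in TRAP and 34.9 to 48.5 cpm in WCH (-1.996, adjusted p = 0.00011). The gene listed as Cdr1 was at 14.3, 18.8, 23.1, 8.41 and 22.6 cpm in TRAP and 91.0, 202, 205, 100 and 163 cpm in WCH, a change of -3.13 ± 0.16 (SE), adjusted p = 6.1e-05. Its antisense partner is the host of a circular RNA, and the library kit did not mark the strand, so that their reads cannot be told apart.

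Most genes of both layer 5 projection neuron lists were higher in TRAP. Of 13 genes of pyramidal tract neurons, 10 were higher and none was lower, with a median change of 1.04. Next to Adcyap1 in the size of the change came Chst8, an N-acetylgalactosamine sulfotransferase, which was at 13.4 to 24.97 against 2.90 to 5.37 cpm (1.96, adjusted p = 0.00016). Pcp4, a regulator of calmodulin, was at 743, 995, 1106, 1125 and 543 cpm in TRAP and 455, 239.7, 269.6, 415 and 222 cpm in WCH (1.51, adjusted p = 0.00035), and Crym, a thyroid hormone-binding protein, at 408, 471, 472, 479 and 385 cpm in TRAP and 220.0, 124, 141, 246 and 191 cpm in WCH (1.304, adjusted p = 0.00039). In both, no TRAP library overlapped WCH. Bcl11b (Ctip2), a factor that acts with Fezf2 and is also strong in striatum and interneurons, was at 57.0 to 91.2 cpm in TRAP and 63.9 to 106 cpm in WCH and was not called (-0.17, adjusted p = 0.20); Npr3 (-0.10, adjusted p = 0.68) and Slco2a1 (-0.08, adjusted p = 0.83) were not called either. Of 8 genes of intratelencephalic neurons, 7 were higher and 1 was lower, with a median of 1.01. They included Sulf2, an extracellular heparan sulfatase (1.23, adjusted p = 0.00017), Hsd11b1, which activates glucocorticoids (1.05, adjusted p = 0.00044), and Batf3, which was at 0.980 to 2.34 against 0.114 to 0.512 cpm (2.76, adjusted p = 0.00072). The exception was Pld5, a member of the phospholipase D family, at 4.80 to 9.31 against 6.31 to 13.6 cpm (-0.70, adjusted p = 0.0035). Without pool 5, where 28.7% of genes were higher and 30.7% lower, these counts were the same, and the medians were 1.09 and 1.09. Of the near-projecting neurons, another deep-layer class, 4 genes were tested, none was higher, and Tshz2 (-1.04, adjusted p = 0.0014) and Slc17a8 (-1.603, adjusted p = 0.0027) were lower.

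Genes shared by glutamatergic neurons were mostly higher too. Of 11, 7 were higher and 1 was lower, with a median of 0.44, and with library sizes alone 5 were higher and 3 lower. The postsynaptic calmodulin-binding protein Nrgn was at 709 to 1370.2 against 334 to 478 cpm (1.43, adjusted p = 0.00013), and the pallial transcription factor Emx1 at 8.41 to 19.9 against 3.83 to 6.75 cpm (1.48, adjusted p = 0.00016). Slc17a6 (VGLUT2), the transporter of thalamic and other subcortical neurons, was at 27.1 to 43.0 and 28.9 to 58.6 cpm and was not called (-0.19, adjusted p = 0.20). Camk2a, whose mRNA is carried into dendrites, was the one lower gene, at 424, 599.8, 721, 705 and 1519 cpm in TRAP and 858, 849, 1069, 937 and 1407 cpm in WCH (-0.48, adjusted p = 0.028). Its TRAP value was highest in replicate 5, and the call was lost without any one of pools 1 to 4. The call of Camk2a was also lost without the replicate block and with all 20 RBP4 libraries in the fit.

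No gene on the lists of other cortical layers was higher. Of 10 upper layer genes, 0 were higher and 5 lower, among them Rasgrf2 (-1.31, adjusted p = 0.00042), Cux1 (-1.21, adjusted p = 0.00018) and Mdga1 (-0.99, adjusted p = 0.0011). The homeobox gene Cux2 was at 203, 121, 134, 86.9 and 241 cpm in TRAP and 77.3, 336, 442, 99.9 and 317 cpm in WCH, and Rorb, a layer 4 nuclear receptor, at 145, 137, 71.0, 85.5 and 74.0 cpm in TRAP and 80.1, 329, 305, 91.4 and 157 cpm in WCH. Both varied several-fold between WCH pools and neither was called. Of 9 layer 6 genes, 7 were lower and 0 higher, with a median of -1.17. Syt6 was at 5.68, 2.65, 3.60, 2.54 and 7.20 cpm in TRAP and 26.5, 36.4, 30.8, 31.4 and 22.4 cpm in WCH (-2.84, adjusted p = 0.00017) and the corepressor Tle4 at 28.9 to 40.3 against 62.1 to 84.3 cpm (-1.17, adjusted p = 0.00017), both without overlap. Ntsr1, the neurotensin receptor that marks corticothalamic cells, was at 7.43 to 10.1 and 4.95 to 7.96 cpm and was not called (0.33, adjusted p = 0.091).

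Outside the cortex, genes of the hippocampal formation went both ways. Of 8 genes of dentate granule cells, 4 were higher: C1ql2 at 6.53, 8.87, 10.8, 8.11 and 6.05 cpm in TRAP and 1.34, 0.967, 1.02, 1.33 and 0.914 cpm in WCH (2.83 ± 0.23 (SE), adjusted p = 0.00011), the tryptophan-degrading enzyme Tdo2 at 23.9, 16.0, 18.9, 25.7 and 16.8 cpm in TRAP and 4.72, 2.84, 5.12, 3.23 and 5.77 cpm in WCH (2.24 ± 0.21 (SE), adjusted p = 0.00012), the desmosomal protein Dsp (1.29, adjusted p = 0.00043) and Lct (0.75, adjusted p = 0.0080). C1ql2 and Tdo2 were several-fold above WCH in every pool. In contrast, Prox1, the transcription factor that defines these cells and is also made by interneurons, was lower at 17.5, 24.4, 16.0, 18.2 and 18.5 cpm in TRAP and 28.6, 46.6, 37.5, 32.9 and 34.4 cpm in WCH (-0.93 ± 0.12 (SE), adjusted p = 0.00030), as was Glis3 (-2.22, adjusted p = 0.0037). Of 7 genes of hippocampal areas CA1 and CA3, Bok (0.98, adjusted p = 0.00040) was higher and 3 were lower, of which Zbtb20, also an astrocyte gene, changed by -2.57 (adjusted p = 0.00028). All 6 genes of the thalamus were lower (median -2.32), among them Tcf7l2, at 9.99, 12.8, 4.68, 2.79 and 12.5 cpm in TRAP and 51.5, 109, 60.5, 25.7 and 42.4 cpm in WCH (-2.80, adjusted p = 0.00012). Of 11 genes of striatal projection neurons, 10 were lower, with a median of -1.35, including the dopamine receptor Drd1 (-1.68, adjusted p = 0.00011). All 4 cholinergic genes, at no more than 1.84 cpm in TRAP for Chat, Slc18a3 and Slc5a7, were lower. When pool 1, 2, 3 or 5 was left out, or the replicate block was dropped, 3 of the 4 were lower.

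GABAergic neuron genes were depleted with 3 exceptions. Of 18 genes, 15 were lower, none was higher, and the median change was -2.01. Gad2, an enzyme that makes GABA, was at 33.6, 34.5, 33.1, 43.7 and 99.8 cpm in TRAP and 272, 302, 231, 299.7 and 276 cpm in WCH (-2.65 ± 0.23 (SE), adjusted p = 0.00011). Its paralogue Gad1 was at 67.9 to 341 against 368 to 483 cpm (-1.99, adjusted p = 0.00076), and in both the highest TRAP library was replicate 5. The vesicular transporter Slc32a1 (-2.02, adjusted p = 0.00031) and the peptide Vip (-2.72, adjusted p = 0.00011) fell as well. Somatostatin (Sst) and the related peptide cortistatin (Cort), which share a class of interneurons, were not called: Sst was at 129, 172, 212, 139 and 151 cpm in TRAP and 149, 138, 162, 184 and 181 cpm in WCH (-0.04 ± 0.14 (SE), adjusted p = 0.85), and Cort at 4.64, 4.44, 5.88, 7.47 and 5.07 cpm in TRAP and 4.61, 2.79, 4.32, 5.36 and 3.77 cpm in WCH (0.40 ± 0.18 (SE), adjusted p = 0.080). The ranges of the groups overlapped for both, and for Sst the difference was well under the spread between libraries. Npy, another peptide of these cells, was at 92.4, 104, 132, 100.3 and 134 cpm in TRAP and 243, 176, 205, 235 and 238 cpm in WCH, a change of -0.97 that was smaller than the list's median. The third exception was Pvalb, a calcium buffer of fast-spiking interneurons, at 31.9, 65.8, 53.8, 31.9 and 173 cpm in TRAP and 128, 108, 82.7, 97.7 and 89.2 cpm in WCH (-0.82 ± 0.36 (SE), adjusted p = 0.075). Here TRAP replicate 5 alone was above the whole WCH range, and without pool 5 the change was -1.24 with an adjusted p of 0.0022.

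Genes of glia, vessels and blood were nearly all lower. All 11 oligodendrocyte genes, all 6 of their precursors, all 12 of microglia and all 5 of red blood cells were lower, as were 11 of 13 astrocyte, 10 of 12 endothelial and mural and 4 of 6 ependymal and choroid plexus genes (2 without pool 2 or without pool 4), and none of these lists had a higher member. The median changes were -2.75 for oligodendrocytes, -2.51 for their precursors, -2.51 for microglia, -3.10 for red blood cells, -2.28 for astrocytes and -2.29 for endothelial and mural cells. Opalin, a membrane protein of myelin, was at 6.14, 4.26, 8.34, 3.83 and 14.1 cpm in TRAP and 59.2, 55.7, 51.2, 50.6 and 54.5 cpm in WCH (-3.03 ± 0.26 (SE), adjusted p = 0.00011). Slc1a2, the astrocyte glutamate transporter, was at 488, 332, 597, 426 and 987 cpm in TRAP and 2125, 1566, 3350.5, 1746 and 2773 cpm in WCH (-2.08 ± 0.16 (SE), adjusted p = 0.00011). Cx3cr1, the fractalkine receptor of microglia, was at 2.81, 1.67, 3.60, 3.09 and 9.91 cpm in TRAP and 35.6, 67.7, 49.9, 38.6 and 34.4 cpm in WCH (-3.57 ± 0.41 (SE), adjusted p = 0.00019). None of these genes overlapped between the groups, and TRAP replicate 5 was the highest TRAP library in each. The astrocyte genes Aldh1l1, at 44.9 to 85.9 against 32.3 to 86.9 cpm, and S100b, at 93.1 to 204 against 109 to 176 cpm, were not called, with changes of 0.26 (adjusted p = 0.094) and -0.06 (adjusted p = 0.82).

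**Figure D2:**
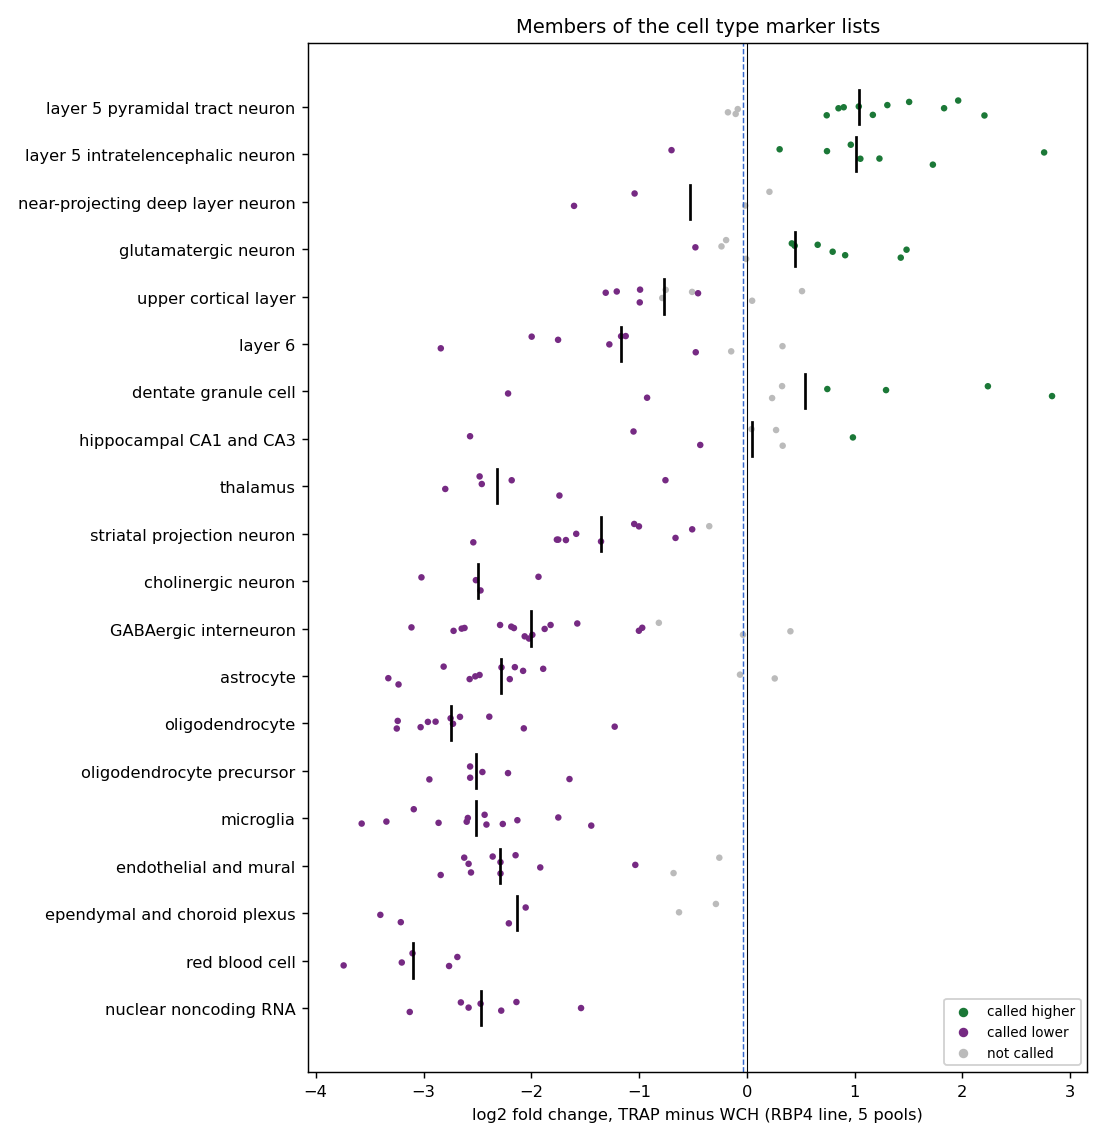
Log2 fold change of TRAP against WCH (5 pools) for the members of 20 cell type and RNA class lists, coloured by the call, with a black bar at the median of each list and a dashed blue line at the median of all genes. Layer 5 and glutamatergic lists lie mostly to the right, dentate granule genes on both sides, and most genes of interneurons, striatum, thalamus, glia and blood below -1.

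The summed level of each list shows how far TRAP replicate 5 differed. In pools 1 to 4, the oligodendrocyte genes together were at 7.21 to 17.6% of their level in the WCH library of the same pool, while in pool 5 they were at 60.1%. The same shares were 7.60 to 15.1% and 37.6% for microglia, 17.8 to 23.2% and 43.8% for astrocytes, and 29.7 to 39.3% and 64.1% for interneurons. For nuclear noncoding RNA they were 6.87 to 14.6% and 42.9%. The layer 5 pyramidal tract list was at 180.0 to 330.2% of WCH in pools 1 to 4 and at 198% in pool 5, and the intratelencephalic list at 185 to 217% and 146%. Abundant members weigh most in these sums. In WCH replicate 1, Malat1 made up 29502 of the 32039 cpm of the nuclear noncoding RNA list. Pcp4 and Crym together made up most of the pyramidal tract sum. Replicate 5 was nearer to WCH than the other TRAP libraries for every list of glia, vessels, blood, interneurons, cholinergic neurons and thalamus, and was within their range for the striatal list. It still showed both directions. With pool 5 left out, 8831 of the 9348 called genes were called in the same direction and 0 in the opposite one, and the median of the oligodendrocyte list moved from -2.75 to -3.20. Why replicate 5 differed was not tested.

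**Figure D3:**
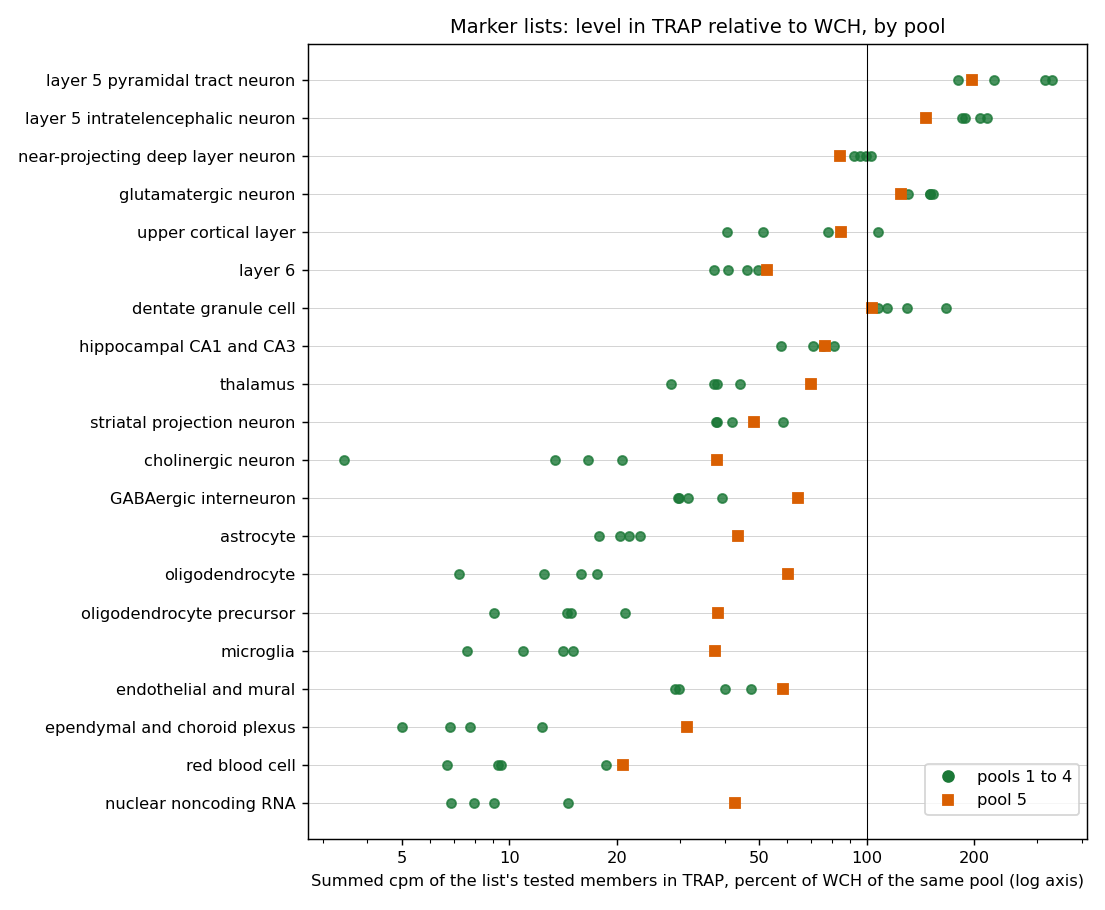
Summed cpm of each list's tested members in TRAP as a percentage of the WCH library of the same pool (log axis), for pools 1 to 4 (green) and pool 5 (orange square). Abundant members weigh most in a sum. Oligodendrocyte genes were at 7.21 to 17.6% in pools 1 to 4 and at 60.1% in pool 5, and the layer 5 lists were above 100% in every pool.

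Nuclear noncoding RNAs were also lower in TRAP, and long intergenic, antisense and intronic RNAs were more often lower than higher. All 7 tested members of a list of nuclear noncoding RNAs fell, with a median of -2.47. Malat1 was at 2304, 1057, 2633, 1126 and 5462 cpm in TRAP and 29502, 17357, 16110.0, 15884 and 13795 cpm in WCH (-3.13 ± 0.38 (SE), adjusted p = 0.00025), and Miat and Meg3 changed by -2.65 (adjusted p = 0.00024) and -2.28 (adjusted p = 0.00034). In each of them TRAP replicate 5 was the highest TRAP library, and all were below every WCH library. By class, 164 of 440 long intergenic noncoding RNAs were lower and 62 higher (median -0.61), 203 of 535 antisense RNAs were lower and 33 higher (median -0.77), and 20 of 27 RNAs within introns were lower and 0 higher (median -2.42). Of 462 processed pseudogenes, 76 were higher and 66 lower (median 0.56), both below the background shares of 27.5 and 29.7%. For long intergenic and antisense RNAs, the higher shares were below the background and the lower shares above it. Of 14293 protein-coding genes, 4258 were higher and 4179 lower. Antisense and intronic genes overlap others. The paper counted only unambiguous reads, and without strand the origin of the counted reads remains uncertain.

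Genes of mitochondria and of protein synthesis and turnover were often higher in TRAP. Of 72 nuclear genes of mitochondrial ribosomal proteins, 70 were higher and 0 lower, with a median of 0.97. Mrpl12 was at 64.7, 80.1, 80.7, 72.0 and 45.9 cpm in TRAP and 19.2, 22.6, 23.8, 23.4 and 22.8 cpm in WCH (1.597 ± 0.14 (SE), adjusted p = 0.00011), and Mrpl28 and Mrpl2 changed by 1.58 (adjusted p = 0.00011) and 1.46 (adjusted p = 0.00011). The exceptions, Mrpl23 (0.68, adjusted p = 0.17) and Mrpl24 (0.10, adjusted p = 0.56), were not called. Of 89 nuclear genes of the respiratory chain and ATP synthase, which make most of the energy of a neuron, 75 were higher and 2 lower, with a median of 1.09. Ndufa6, a subunit of complex I, was at 369, 498, 556, 407 and 367 cpm in TRAP and 91.5, 139, 179.9, 130.2 and 187 cpm in WCH (1.62 ± 0.16 (SE), adjusted p = 0.00013), and the cytochrome oxidase subunits Cox6a1 and Cox5b changed by 1.48 (adjusted p = 0.00012) and 1.46 (adjusted p = 0.00012). In these 3 genes all TRAP libraries were above all WCH libraries, including replicate 5. The 2 lower genes, Cox8b and Ndufa4l2, were under 1 cpm in every library, and 0 were lower without pool 1 or without pool 2, and 1 without pool 3. Of 37 proteasome subunits, 33 were higher, among them Psmd8 (1.33, adjusted p = 0.00011), and the 2 lower ones, Psmb8 (-2.80, adjusted p = 0.0024) and Psmb9 (-2.02, adjusted p = 0.0092), are subunits of the immunoproteasome. With only genes that reached 1 cpm in at least 5 libraries, 35 subunits were tested and 0 were lower. Translation factors were higher in 36 of 58 cases and lower in 2 (median 0.43), with Eif5a at 173 to 302 against 77.7 to 108 cpm (1.397, adjusted p = 0.00017). Of 80 cytoplasmic ribosomal proteins, 35 were higher and 2 lower, with a median of 0.45, and 19 were higher without pool 2 or without pool 3. With library sizes alone the counts of higher genes were 63 for mitochondrial ribosomal proteins, 70 for the respiratory chain, 18 for the proteasome, 15 for translation factors and 13 for cytoplasmic ribosomal proteins, and those of lower genes were 0, 3, 2, 7 and 4 in the same order.

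Because the mitochondrial genes moved together, their promoters were searched for the letters of motifs known from housekeeping and mitochondrial genes. RefSeq promoters (GRCm38.p6, 250 bases before to 50 after the start) were matched by symbol for 122 of the 145 members of both lists that were higher. The motifs, read on both strands, were GCGCATGC (core of the NRF1 motif), CCGGAAGT (ETS) and AAGATGGC (YY1), and no matches of different motifs overlapped in any promoter. Of the 122 promoters, 12.3% held the first, 11.5% the second and 15.6% the third, against 4.98, 7.47 and 4.26% of the 11936 promoters of tested genes. Among the 9 promoters of members that were not higher, 2 (22.2%) held the first and 0 the others. For cytoplasmic ribosomal proteins (58 promoters) the shares were 3.45, 20.7 and 8.62%. To show them in place, 1 promoter is given for each motif, that of the higher gene with the smallest p which holds it near the start, from 80 bases before to 40 after the start, with the matched letters, or their reverse complement, in capitals. They are Mrpl17 (chr7:105811048-105811167, minus strand), Ndufs3 (chr2:90904682-90904801, minus strand) and Mrpl36 (chr13:73330929-73331048, plus strand).
Mrpl17, NRF1: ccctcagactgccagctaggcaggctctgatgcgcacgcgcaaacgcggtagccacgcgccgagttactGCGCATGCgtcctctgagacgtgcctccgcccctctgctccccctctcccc
Ndufs3, ETS: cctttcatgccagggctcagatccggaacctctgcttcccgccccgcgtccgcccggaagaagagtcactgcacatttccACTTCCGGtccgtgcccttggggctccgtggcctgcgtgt
Mrpl36, YY1: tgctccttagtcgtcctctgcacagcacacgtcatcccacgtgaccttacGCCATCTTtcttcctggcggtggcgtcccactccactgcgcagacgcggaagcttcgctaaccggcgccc
In the libraries, Mrpl17 was at 63.3 to 104 against 35.9 to 46.2 cpm (1.08, adjusted p = 0.00020), Ndufs3, a complex I subunit, at 81.0 to 99.4 against 39.9 to 47.2 cpm (1.04, adjusted p = 0.00014), and Mrpl36 at 76.4 to 156 against 39.8 to 52.4 cpm (1.35, adjusted p = 0.00012). A match is a string of letters and not a measured binding site.

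The change also followed the length of the gene. Protein-coding genes were divided into 5 classes of equal size by the exonic length that the files give. In the shortest class (255 to 2153 bases), 1477 of 2859 genes were higher and 468 lower, with a median of 0.54, and in the longest (6534 to 116825 bases) 258 of 2861 were higher and 1502 lower, with a median of -0.49. The classes between had medians of 0.28, 0.04 and -0.15 in order of length. Without pool 5 the medians ran from 0.59 to -0.52, and with library sizes alone from 0.24 to -0.78. When the genes of cytoplasmic and mitochondrial ribosomes, respiratory chain, proteasome and translation factors were set aside, the shortest class still had a median of 0.50 over 2665 genes. The mitochondrial lists were above their own class of length: 42 mitochondrial ribosomal proteins in the shortest class had a median of 1.03, against 0.54 for that class, and 9 in the middle class had 0.87, against 0.04. The 56 cytoplasmic ribosomal proteins of the shortest class had a median of 0.49, close to that of the class. The part of length in the changes of these lists was not tested further. The paper states that 3' priming in library preparation left its reads strongly biased to the 3' end. The part of that bias in the trend with length was not tested.

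**Figure D4:**
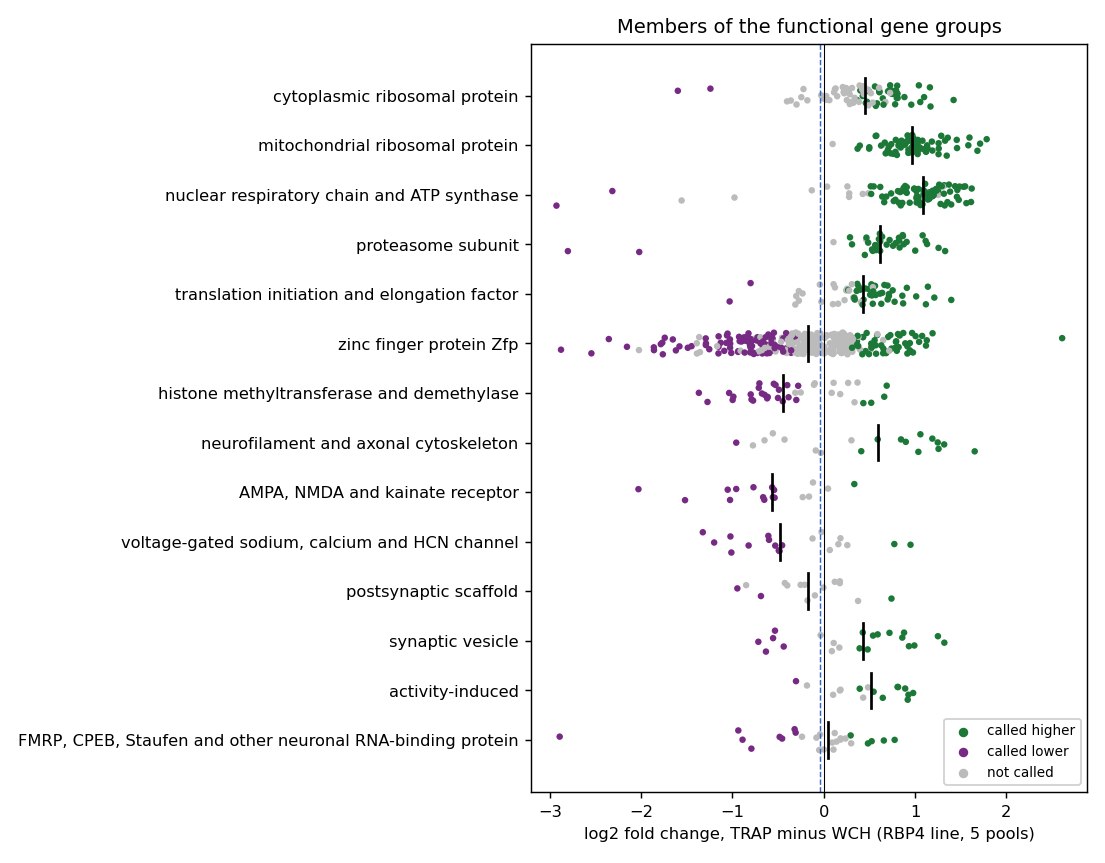
Log2 fold change of TRAP against WCH (5 pools) for the members of 14 functional groups, coloured by the call, with a black bar at the median of each group and a dashed blue line at the median of all genes. Nearly all mitochondrial ribosomal, respiratory chain and proteasome genes were higher, and most glutamate receptor, channel and histone methylation genes were lower.

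Genes of the neuronal cytoskeleton, synapse and membrane split by group. Of 19 genes of the cytoskeleton, 11 were higher and 1 was lower. The microtubule regulator Stmn3 was at 822, 1083, 1179, 1015 and 748 cpm in TRAP and 317, 261, 297, 337 and 311 cpm in WCH (1.65 ± 0.15 (SE), adjusted p = 0.00012), the neurofilament subunit Nefl at 644 to 1007 against 342 to 443 cpm (1.06, adjusted p = 0.00016) and Nefh, which marks large projection neurons, at 62.9 to 91.9 against 37.6 to 53.7 cpm (0.90, adjusted p = 0.00030). The lower gene was Map2, whose mRNA is found in dendrites, at 329 to 483 against 511 to 995 cpm (-0.96, adjusted p = 0.0025). Without pool 5, 11 were higher and 5 lower, and with library sizes alone 9 and 4. Of 21 synaptic vesicle genes, 12 were higher and 5 lower (8 and 6 with library sizes alone, and 3 lower without any one of pools 1 to 4), with Stx1a (1.32, adjusted p = 0.00012), Rab3a (1.25, adjusted p = 0.00018) and Vamp2 (0.99, adjusted p = 0.00024), parts of the release machinery, among the former and Rims1 (-0.63, adjusted p = 0.0018) among the latter. In contrast, 12 of 17 ionotropic glutamate receptor genes were lower and 1 was higher, with a median of -0.56. The higher one was Grin1 (0.34, adjusted p = 0.037), whose call was lost without any one of pools 1 to 4. The call of Grin1 was lost in other settings too, among them library sizes alone (0.04) and the fit without the replicate block. With library sizes alone, 0 receptors were higher and 14 lower. The AMPA receptor subunit Gria2 was at 772, 704, 729, 778 and 823 cpm in TRAP and 1019, 1217, 1148, 1010.2 and 1136 cpm in WCH (-0.54 ± 0.12 (SE), adjusted p = 0.0042), and Gria4, which is typical of interneurons, changed by -1.03 (adjusted p = 0.00030). Of 19 genes of voltage-gated sodium, calcium and HCN channels, 11 were lower and 2 higher, with 1 higher without pool 4, with library sizes alone or without the replicate block. The lower ones included the pore subunits Cacna1c (-1.01, adjusted p = 0.00048), Cacna1e (-1.02, adjusted p = 0.00046) and Scn3a (-1.20, adjusted p = 0.00051). Receptor and channel genes are long, and 8 of the 17 receptors and 12 of the 19 channels were in the longest class, where their medians were -0.56 and -0.60, against -0.49 for the class. In the class next in length, the 7 receptors and 3 channels had medians of -0.66 and -0.46, against -0.15 for that class, and Grik1, the one receptor in the second shortest class, was at -1.52, against 0.28. Of 15 postsynaptic scaffold genes, 1 was higher and 2 were lower. With library sizes alone 1 was higher and 8 were lower, and without pool 1 these counts were 2 and 4.

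Activity-induced genes were higher in 9 of 16 cases and lower in 1, Btg2 (-0.30, adjusted p = 0.048), whose call was lost without any one of pools 2 to 5. With library sizes alone 5 were higher and 1 lower, and without the replicate block 5 and 0. The immediate early gene Fos was at 71.0, 79.6, 55.8, 89.7 and 52.9 cpm in TRAP and 30.8, 47.1, 18.6, 49.1 and 44.5 cpm in WCH (0.93 ± 0.17 (SE), adjusted p = 0.0018) and the neurotrophin Bdnf at 137, 160.1, 129, 163 and 55.8 cpm in TRAP and 78.7, 98.5, 56.8, 80.7 and 43.2 cpm in WCH (0.81 ± 0.13 (SE), adjusted p = 0.00087). The phosphatase Dusp1 was at 98.5, 121, 41.2, 127 and 84.0 cpm in TRAP and 61.9, 51, 22.1, 73.0 and 46.6 cpm in WCH (0.89 ± 0.11 (SE), adjusted p = 0.00030). Pool 3 had the lowest value of Dusp1 in both TRAP and WCH, so that the groups overlapped while TRAP was above WCH within every pool. Of 26 genes of neuronal RNA-binding proteins, 5 were higher, among them the Hu protein Elavl4 (0.78, adjusted p = 0.00056), and 8 were lower, among them Celf2 (-0.79, adjusted p = 0.00068), Cpeb3 (-0.94, adjusted p = 0.00026) and Qk (-2.89, adjusted p = 0.00017), a splicing factor that is strongest in glia. The shares of this list were below the background in the first direction and close to it in the second, with a median of 0.05. With library sizes alone, 1 was higher and 12 lower, and without pool 2 or without pool 3, 5 were lower. Of 37 histone methyltransferases and demethylases, 23 were lower and 4 higher (median -0.45), with 15 lower without pool 2 and 12 without pool 3. The lower genes included Kmt2c at 33.9 to 71.2 against 81.3 to 121 cpm (-1.27, adjusted p = 0.00030). Of these 37 genes, 25 were in the longest class, where their median of -0.53 was close to that of the class. Of 323 zinc finger genes named Zfp, 51 were higher and 86 lower, shares below the background in the first direction and close to it in the second. With library sizes alone they were 23 and 146, and 56 were lower without pool 2 and 57 without pool 3.

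The change from WCH to TRAP was then set against that in VGAT-TRAP mice, with the difference of the changes tested over 20 libraries of 10 pools. Of 16991 genes, 1859 (10.9%) changed more positively in the RBP4 line and 1977 (11.6%) more negatively. Without pool 4 of both lines these counts were 1219 and 1308. Among 11 glutamatergic genes, 9 were more positive in the RBP4 line, and of the 13 pyramidal tract genes 8 were more positive and 1 more negative. All 18 GABAergic genes and all 11 striatal genes were more negative. Fezf2 changed by -2.37 in the VGAT line, so that the lines differed by 4.20 ± 0.41 (SE), adjusted p = 4.1e-06. Genes with the smallest p of this difference included Adcyap1 (-2.29 in the VGAT line, difference 4.51 ± 0.34 (SE), adjusted p = 3.4e-07) and Net1, a guanine nucleotide exchange factor (1.08 and -1.62, difference 2.70 ± 0.18 (SE), adjusted p = 1.5e-07). On the other side, the difference was -4.57 ± 0.15 (SE), adjusted p = 3.2e-10 for Penk, -4.86 ± 0.17 (SE), adjusted p = 5.5e-10 for Pnoc, the precursor of nociceptin, and -4.68 ± 0.17 (SE), adjusted p = 6.0e-10 for Npy. Sst, which was not called in the RBP4 line, changed by 3.93 in the VGAT line, a difference of -3.96 ± 0.19 (SE), adjusted p = 5.5e-09.

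Some genes that were higher in RBP4 TRAP had positive changes in the VGAT line too. Rbp4, whose regulatory sequence drives Cre in the RBP4 line, changed by 1.03 there and by 3.26 in the VGAT line, a difference of -2.22 ± 0.20 (SE), adjusted p = 1.6e-06. Its mean level was 127 ± 23.7 cpm (SD, n = 5) in VGAT TRAP and 23.9 ± 6.16 cpm in RBP4 TRAP. The RBP4 level is on the scaling of the RBP4 libraries alone, so that both levels are only roughly comparable. Pcp4 and Tcerg1l, on the pyramidal tract list, changed by 2.11 and 1.09 in the VGAT line, and their differences between lines were -0.60 ± 0.24 (SE), adjusted p = 0.085, and -0.04 ± 0.21 (SE), adjusted p = 0.92. Of the dentate granule genes, C1ql2 and Tdo2 changed by -1.02 and -1.81 in the VGAT line, and differed between the lines by 3.85 ± 0.35 (SE), adjusted p = 1.9e-06, and 4.06 ± 0.37 (SE), adjusted p = 2.0e-06.

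Of the glial lists, those of microglia and astrocytes held a few genes that differed between the lines, and the oligodendrocyte lists held none. Of the 11 oligodendrocyte genes and the 6 genes of their precursors, 0 differed between lines, and the medians of the difference were -0.03 and 0.10. Of 12 microglia genes, 4 changed more negatively in the RBP4 line and 0 more positively (median of the difference -0.98). Of 13 astrocyte genes, 3 changed more positively and 0 more negatively (median of the difference 0.27). Of the 72 mitochondrial ribosomal protein genes 0 changed more positively and 3 more negatively in the RBP4 line, and of the 89 respiratory chain genes 0 and 11, against background shares of 10.9 and 11.6%. The rise of these lists was thus present in the VGAT line too, with median changes there of 1.14 and 1.56. Their medians of the difference were -0.10 and -0.41. By length, the median changes in the VGAT line were 0.61 in the shortest and -0.50 in the longest class, with medians of the difference between -0.13 and 0.02. A difference that misses the threshold does not show that both lines act alike, and the lines share the preparation.

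**Figure D5:**
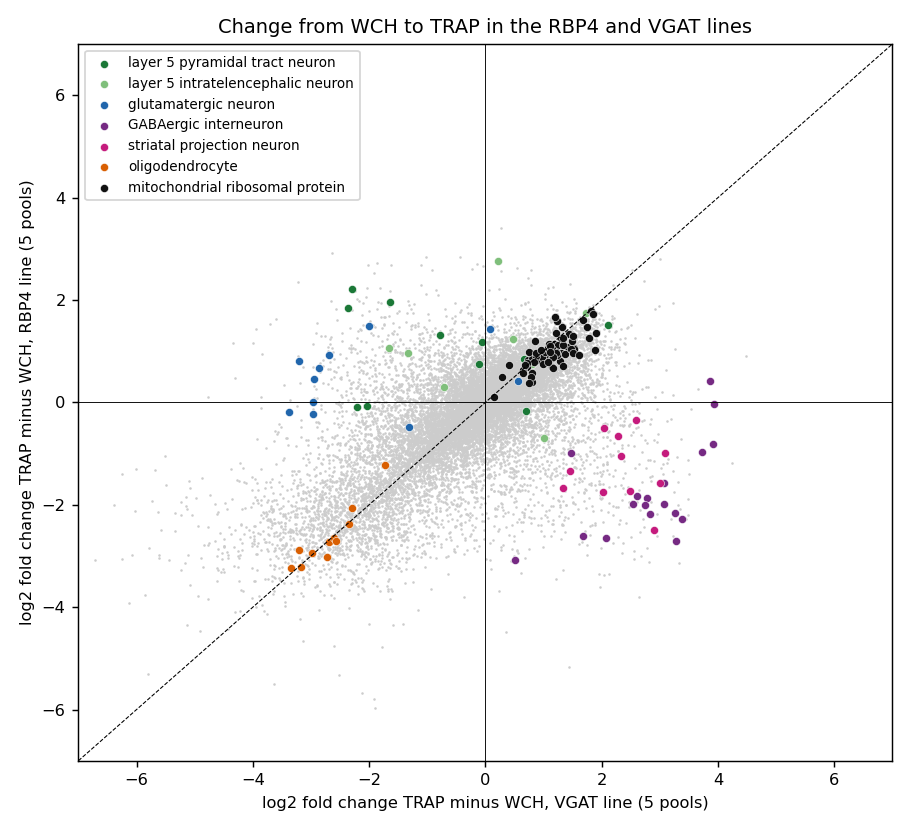
Log2 fold change of TRAP against WCH in the VGAT line (x axis) and in the RBP4 line (y axis) for 16991 genes (grey), with members of 7 lists in colour, and a dashed line where both are equal. Most layer 5 and glutamatergic genes lie above the dashed line, all 18 interneuron and all 11 striatal genes below it, and most oligodendrocyte and mitochondrial ribosomal protein genes near it.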

How the data were processed

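RNA-seq of 10 RBP4-TRAP libraries (5 TRAP, 5 WCH) and, for the test between lines, 10 VGAT-TRAP libraries was used. The authors prepared cDNA with the SMARTer Ultra Low kit, which does not mark strand, and describe a strong 3' bias of the reads from 3' priming. They aligned short single reads with STAR 2.0.4b to an Ensembl assembly whose build is not given in the sources used here. Subread featureCounts 1.4.5 was used by the authors to count reads that aligned uniquely and were unambiguous. The counts as deposited are whole numbers without normalization. The CPM values as deposited were obtained by the authors from these counts and library totals, with mitochondrial genes kept. For RPKM, the authors deposited CPM divided by gene length. Neither was used in tests. Of 40340 genes shared with GENCODE M21 (GRCm38), 40281 overlapped their position there. Symbols were matched for 40254 of 41388 genes.

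Here, the 37 mitochondrial genes were left out, as were genes without 0.5 cpm in at least 3 libraries, and counts were fitted in R 4.3.3 with edgeR 4.0.16 (TMM, glmQLFit, glmQLFTest, Benjamini-Hochberg adjustment) with the pool as a block. Replicate numbers mark pools from which the fractions were taken in parallel. Deviations from the group means correlated between TRAP and WCH of a pool by 0.227 on average (-0.00278 to 0.461). The average between pools was -0.0558, but taking deviations from group means largely sets that value, so it is not a separate comparison. Single values between pools ran from -0.424 to 0.190. Of the 5 TRAP libraries, 2 correlated best with WCH of their own pool, so the pairing rests on the replicate numbers. The difference between lines was a contrast in a fit of 20 libraries with 10 pools as a block. Pools are separate groups of animals. Total counts were 16325474 to 22037703. Off the mitochondrial chromosome they were 14838858 to 21978515, at which 1 count is 0.0455 to 0.0674 cpm before TMM scaling. Scripts were tested on simulated data. DESeq2 1.42.0 and other settings were alternatives. Standard errors are the log2 fold change divided by the root of F.

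The libraries and 34 gene lists were chosen with earlier results of these data known. Genes named are Rbp4, Fezf2, Etv1, Slc17a7 and Rpl10a; the 12 per direction with the smallest p, at least 5 cpm, 2-fold and without overlap (Gm and Rik names left out); at most 3 called members per list and direction; and 6 per direction from the test between lines. Other list members named, such as the exceptions of a list, were chosen after their values were seen. Some genes that met these rules are not reported here. The SNF and ST libraries were used only in the alternative with 20 RBP4 libraries.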

Additional observations from a re-analysis of the deposited data

Results flagged for a closer look

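The values of each group of 5 libraries were searched for a library whose gap to the next exceeded 0.71 of the range (Dixon's 95% value), over 392 groups of values from named genes, summed lists and library measures. Chance gives about 1 in 20 such groups, and 42 were found, of which 25 were TRAP replicate 5. This library was low on the first principal component (-12.4) and high for the summed level of the lists of oligodendrocytes (5858 cpm), astrocytes (3922 cpm), GABAergic interneurons (1132 cpm), nuclear noncoding RNA (7757 cpm) and neurofilament and cytoskeleton genes (25448 cpm), for the last of which WCH replicate 5 was high too (13443 cpm). It was the high library, in cpm, for Cacna1c (35.5), Cacna1e (125.6), Camk2a (1519), Csf1r (8.36), Ctss (18.2), Gad2 (99.8), Kmt2c (71.2), Meg3 (13.3), Miat (45.3), Rasgrf2 (110.3), Slc6a11 (18.7), Zbtb20 (110.8), Zfp521 (5.01) and Zfp536 (12.2), and the low one for Adcyap1 (32.6), Mrpl28 (72.5), Slc5a5 (37.9), Vamp2 (1099) and Zfp637 (88.6). WCH replicate 5 was low for Adcyap1 (9.59) and high for Tubb3 (441), Zfp521 (14.9) and Zfp707 (12.9), in cpm.

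Other TRAP libraries that stood apart were replicate 1 for Cox8b (0.392 cpm), Cplx2 (184.7 cpm) and Pcp4l1 (38.9 cpm), and replicate 3 for Btg2 (16.9 cpm), Eif4ebp2 (7.38 cpm) and Slc17a8 (1.92 cpm). In WCH these were replicate 1 for Malat1 (29502 cpm), Mrpl12 (19.2 cpm) and the share of counts from long noncoding RNA (5.30%), replicate 2 for Kl (12.2 cpm), and replicate 4 for Slco1a4 (3.69 cpm) and the summed endothelial and mural list (56.8 cpm).

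The change from WCH to TRAP differed between the RBP4 and VGAT lines (adjusted p of the difference at most 0.05) for 15 of the 16 genes that the naming rule took for this test (Rbp4, Fezf2, Etv1, Slc17a7, Rpl10a and genes with the smallest p of the difference). Of the list members whose difference is given above, Pcp4 and Tcerg1l missed the threshold. Values are on the log2 scale. The change was more positive in the RBP4 line for Adcyap1 (4.51), Fezf2 (4.20), Slc17a7 (3.60), Net1 (2.70), Adamtsl2 (2.53), Etv1 (2.30), Ldb2 (2.28) and Tmem200a (2.05), and more negative for Pnoc (-4.86), Npy (-4.68), Pcp4l1 (-4.58), Penk (-4.57), Nxph1 (-4.36), Rarb (-3.37) and Rbp4 (-2.22). Of these genes, those other than the markers and Rbp4 were chosen by the p of this same test.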

How the results depend on the processing

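With library sizes alone, 2599 genes were higher and 6746 lower, against 4498 and 4850 with TMM, and 16 of the 68 list counts moved by more than 1.5 times. That scaling shifted the median of all genes by -0.292. The other settings moved neither count past 1.5 times: a likelihood ratio test, DESeq2, all 20 RBP4 libraries, every gene kept whatever its counts, only genes that reached 1 cpm in 5 or more libraries, and rRNA and tRNA genes left out. Without the replicate block, 4006 genes were higher and 4036 lower, 1477 and 1585 differed between lines, and 8 list counts moved. Leaving out each pool in turn gave 3610 to 4558 higher and 3627 to 4878 lower genes, and 1219 to 1685 and 1308 to 1751 genes that differed between lines. The lowest of the latter came without replicate 4 of both lines, 1219 and 1308 against 1859 and 1977. Of 156 genes named by the rule and reported here, 144 kept their direction and their side of the threshold in every setting in which they were tested. Calls were lost in 1 or more settings for Btg2, Camk2a, Cplx2, Eif2s3y, Fibcd1, Fxr2, Grin1, Kdm1a, Nr4a1, Rbfox3, Rgs5 and Scn2b. Why these calls moved was not tested, beyond the smaller number of libraries in some fits. Genes near the filter rest on few counts. Genes without 0.5 cpm in at least 3 libraries were left out of the main fit, while genes under 0.5 cpm in most libraries could be tested.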
